A study of Mus musculus with 6 samples.

Results

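The miR-200 family is made of 5 hairpins in 2 genomic clusters, one with miR-200b, miR-200a and miR-429 and the other with miR-200c and miR-141. The members described here are 8 mature miRNAs from both arms of these hairpins, of 782 mature miRNAs found above 0 in Ago-bound short RNA. They were matched by name, and 372 unique reads above 0 carried such a name. The family was chosen by its lower levels in Tau tg than in WT brains in these same samples, so every value of that difference below is a description, carries no test and supports nothing by itself.

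The data come from brains of 3 WT and 3 Tau tg mice. The sample labels and the study's own account of these mice name hippocampus, while its general protocol for mouse brains names cortex and hippocampus combined. Per the study's methods, the mice were males at 3 months of age, and the Tau tg mice, on a C57BL/6 J background, carried a human tau45-230 cDNA driven by the neuronal Thy 1.2 promoter. Such mice are known to lose pyramidal neurons of the hippocampus. Argonaute (Ago) proteins, which carry guide RNAs in the silencing complex, were pulled down with a GW182 peptide, and the bound RNA was sequenced. Levels are RPM, reads scaled to the library size, and rest on 998248 to 6879551 reads per mouse. Neuronal miRNAs marked the tissue in every mouse: 5 of them summed to between 142722 and 160128 RPM, with miR-124-3p between 47769 and 90278 RPM.

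A hairpin gives 2 arms, 5p and 3p, and in most hairpins a single arm is kept by Ago as the guide strand. The guide finds mRNAs through its seed, the bases that follow its first. Members of the miR-200 family are known as miRNAs of epithelial cells, where they repress Zeb1 and Zeb2, transcription factors that silence E-cadherin. They are also abundant in olfactory and other sensory epithelia and in the pituitary, while most neurons of the forebrain hold little of them.

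The mature sequences are shown because the family splits by seed and not by cluster (RefSeq, GRCm38.p6, 5′ to 3′, seed at positions 2 to 8 in capitals, mmu marking the mouse and left out from here on).
mmu-miR-200b-3p: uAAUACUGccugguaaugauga
mmu-miR-429-3p: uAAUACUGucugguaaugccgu
mmu-miR-200c-3p: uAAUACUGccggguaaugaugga
mmu-miR-200a-3p: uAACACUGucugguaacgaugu
mmu-miR-141-3p: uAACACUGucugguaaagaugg
mmu-miR-200b-5p: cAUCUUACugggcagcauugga
mmu-miR-200a-5p: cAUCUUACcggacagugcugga
mmu-miR-141-5p: cAUCUUCCagugcaguguugga

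The first 3 share a seed, and miR-200a-3p and miR-141-3p share another that differs from it by U4C, counted from the 5′ end of miR-200b-3p. Outside the seed, miR-200c-3p differs from miR-200b-3p by U11G and A22G and is 1 base longer. miR-141-3p differs from miR-200a-3p by C17A and U22G. Such close relatives can trade reads in a search by sequence. Reads above 0 were at least 18 nt long, and the guides that share a seed differ by position 17 at the latest. An exact match to more than 1 member hairpin was therefore hardly possible, and none was found. Reads that matched their hairpin without a mismatch made up 80.4% of the summed level. For miR-141-3p they made up 66.9%, and for the other guides 83.1% to 87.3%. Trading among the reads with a mismatch was not tested.

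The first cluster lies on the minus strand of chromosome 4, with Mir200b at chr4:156055681-156055750, Mir200a at chr4:156054896-156054985 and Mir429 at chr4:156053905-156053987 (GRCm38.p6), within 1846 bases. All 3 hairpins are in introns of Ttll10, a gene of the tubulin ligase-like family. Mir429 also overlaps an exon of the noncoding transcript Gm13648, and the deposited annotation named that transcript for 23 of the 25 unique reads of miR-429-3p. The second cluster is on the minus strand of chromosome 6, with Mir200c at chr6:124718322-124718390 and Mir141 at chr6:124717914-124717985, within 477 bases. Both are in introns of the noncoding gene Gm15884, and Mir141 also overlaps an exon of Gm29008, a transcript still to be checked by experiment.

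Summed over the 8 members, the family stood at 3123, 6142 and 9888 RPM in WT 1, WT 2 and WT 3 and at 2313, 2486 and 2275 RPM in Tau tg 1, Tau tg 2 and Tau tg 3. The groups did not overlap, and the WT mean was 2.71 times the Tau tg mean (6384 ± 3389 against 2358 ± 112 RPM, SD, n = 3). The WT brains differed widely among themselves, whereas the Tau tg brains were nearly level. The lowest WT brain, WT 1, was closer to the Tau tg brains than to WT 3. In bulk tissue, fewer cells of a type and less RNA per cell cannot be told apart. The family was a small part of the Ago-bound miRNAs, with 0.360% to 1.31% of miRNA reads in WT and 0.256% to 0.293% in Tau tg.

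miR-200a-3p was the most abundant member by the mean of either group, although miR-141-3p was above it in Tau tg 3. It held 37.7% ± 8.15 of the family in WT and 39.1% ± 0.45 in Tau tg (SD, n = 3). Its level was 930, 2830 and 3692 RPM in the WT brains and 906, 980 and 877 RPM in the Tau tg brains. WT 1 lay among the Tau tg brains, so the groups overlapped, and the difference came from WT 2 and WT 3. By mean level it ranked 57th of the mature miRNAs in WT and 106th in Tau tg.

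miR-200b-3p, its neighbour in the cluster with the other seed, stood at 459, 823 and 1493 RPM in WT, and 275, 275 and 178 RPM in Tau tg. Every Tau tg brain was below every WT brain, with means of 925 ± 525 and 242 ± 56.2 RPM (SD, n = 3).

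miR-429-3p, the last of this cluster, had the widest relative range of the 5 guides. It stood at 232, 1020 and 1281 RPM in WT, and 205.5, 36.0 and 63.4 RPM in Tau tg. The groups did not overlap, but WT 1 and Tau tg 1 were close to each other, and the low Tau tg mean (102 ± 91.0 against 844 ± 546 RPM, SD, n = 3) came from Tau tg 2 and Tau tg 3, where 43 and 155 reads were counted.

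Each guide of the chromosome 6 cluster overlapped between the groups. miR-200c-3p was at 779, 516 and 1031 RPM in WT, and 282, 570 and 173 RPM in Tau tg. The groups overlapped, since Tau tg 2 was above WT 2. miR-141-3p was at 705, 917 and 2334 RPM in WT, and 630, 621 and 984 RPM in Tau tg. Here Tau tg 3 exceeded WT 1 and WT 2. Summed with its 5p arm, the cluster did not overlap, at 1484, 1436 and 3368 RPM in WT against 912, 1192 and 1156 RPM in the Tau tg brains.

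**Figure D1:**
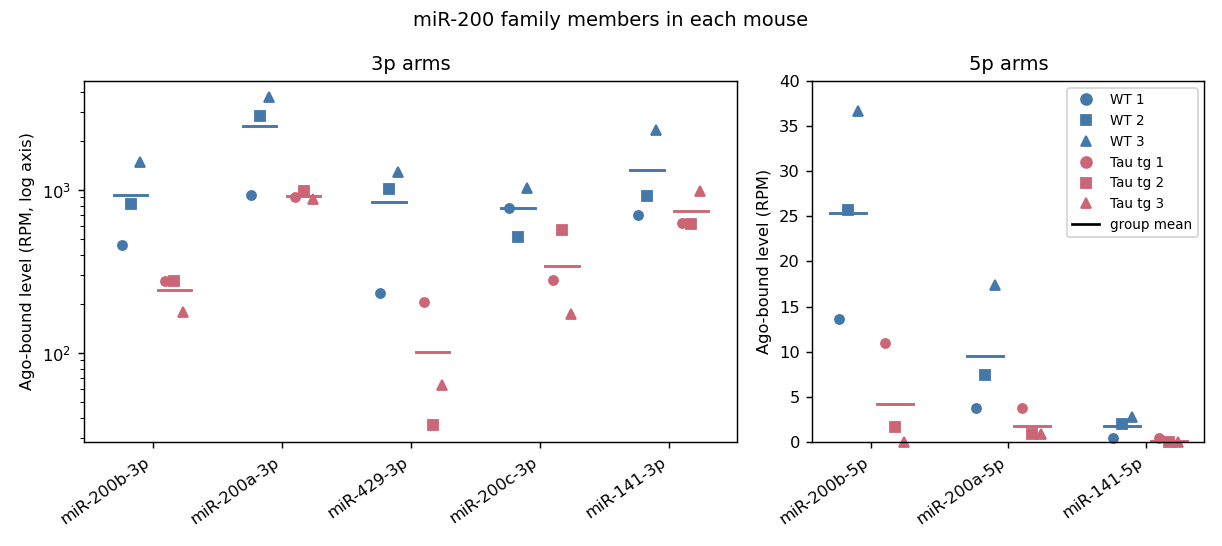
Ago-bound level of the 8 members in each mouse, as RPM on a log axis for the 3p arms (left) and on a linear axis for the 5p arms (right). Symbols are mice, bars are group means (n = 3). For miR-200a-3p the circle of WT 1 (930 RPM) lies among the Tau tg symbols, while for miR-200b-3p the lowest WT value (459 RPM) is above the highest Tau tg value (275 RPM).

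The 5p arms, which are the passenger strands of these hairpins, were rare. miR-200b-5p was at 13.6, 25.7 and 36.7 RPM in WT, and 10.96, 1.67 and 0 RPM in Tau tg. Its reads numbered 29, 38 and 40 in WT and 77, 2 and 0 in Tau tg, so that Tau tg 1, the deepest library, gave the only Tau tg value above the floor of 3 reads. miR-200a-5p was at 3.75, 7.45 and 17.4 RPM in WT, and 3.70, 0.836 and 0.818 RPM in Tau tg, on 8, 11 and 19 reads and on 26, 1 and 2 reads. Reads named miR-141-5p numbered between 0 and 3 in each of the 6 libraries, at or under that floor. The same arm gave 35 further reads over the 6 libraries that differ from the reference by G12A, counted from the 5′ end of miR-141-5p, and that have no miRNA name in the table.

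As a share of the reads of its hairpin, the 5p arm of mir-200b made up 2.87%, 3.04% and 2.40% in WT and 3.84%, 0.604% and 0% in Tau tg. The 95% Wilson intervals, which cover counting error only, ran from 0.166% to 2.18% in Tau tg 2 and up to 0.877% in Tau tg 3, below the 3.08% to 4.77% of Tau tg 1. The Tau tg brains thus differed from each other in this share by more than counting error. For mir-200a the share was at most 0.470% in any mouse, and the other arms of mir-200c and mir-429 reached no more than 4.59 and 0.917 RPM.

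On the log2(RPM + 1) scale, which understates changes of low miRNAs, the family was lower in Tau tg by a mean log2 difference of -1.29 ± 0.38 (SE, limma). The median miRNA was 0.25 higher in Tau tg on this scale (0.08 with median-of-ratios scaling, 0.04 with quantile normalization), so that the family differed from it by -1.53. The chromosome 4 cluster differed by -1.54 ± 0.42 and the chromosome 6 cluster by -0.84 ± 0.37. Of single members, miR-429-3p differed by -3.09 ± 0.66, miR-200b-3p by -1.79 ± 0.43, miR-200c-3p by -1.30 ± 0.45, miR-200a-3p by -1.21 ± 0.43 and miR-141-3p by -0.66 ± 0.42. The SEs of the 5p arms were over 1 log2 unit (miR-200b-5p -2.95 ± 1.19, miR-200a-5p -1.85 ± 1.18).

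Of the 8 members, 7 reached a mean of 1 RPM and entered the fit over 689 miRNAs, and miR-141-5p did not. All 7 had a lower mean in Tau tg, with a median log2 difference of -1.79 against 0.25 over all miRNAs tested. Among all 689 miRNAs, 3.63% had an unadjusted limma p under 0.05 (25 miRNAs, 14 higher and 11 lower in Tau tg, the latter being 1.6%). The split into higher and lower was 10 and 15 with median-of-ratios scaling, 7 and 16 with quantile normalization and 11 and 14 with RPM over miRNA reads only. Members made up 5 of the 11 lower miRNAs, namely miR-200a-3p, miR-200b-3p, miR-200c-3p, miR-429-3p and miR-200b-5p. Leaving out WT 3 or Tau tg 2 brought this number to 3, and leaving out Tau tg 3 to 2. After Benjamini-Hochberg adjustment limma and edgeR called 0% of the 689 miRNAs and DESeq2 called 5 of them, all lower in Tau tg. Groups did not overlap, with Tau tg lower, for 2.18% of all tested miRNAs (8.71% in either direction) and for 4 of the 7 tested members. These counts follow from how the members were chosen.

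**Figure D2:**
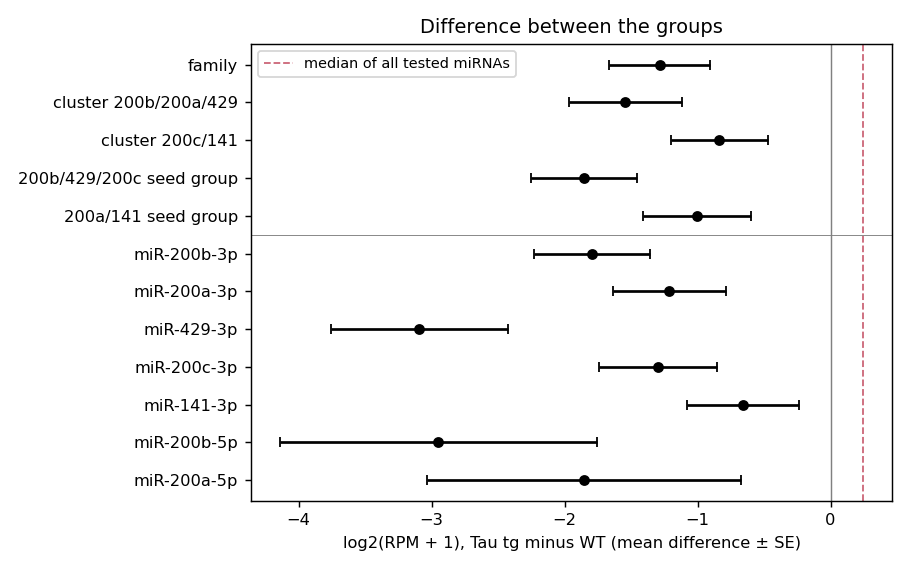
Mean difference of log2(RPM + 1) between Tau tg and WT for the summed family, its clusters and seed groups (above the line) and 7 members (below), with SE from limma (n = 3 per group). All points lie left of 0, between -3.09 for miR-429-3p and -0.66 for miR-141-3p, and the dashed line marks the median of 689 miRNAs at 0.25.

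The difference in the family rested unevenly on single mice. Leaving out WT 3, the mouse with the highest level, brought the log2 difference of the family to -0.89, and leaving out WT 1 brought it to -1.73. Without WT 3 the chromosome 6 cluster was at -0.44, the group of miR-200a-3p and miR-141-3p, which share a seed, at -0.58, miR-141-3p at -0.15 and miR-200a-3p at -0.82. Without WT 1 this seed group was at -1.52 and miR-141-3p at -1.01.

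Within the chromosome 4 cluster the 3 guides followed each other closely over the 6 mice. Pearson's r of log2(RPM + 1) was 0.93 for miR-200a-3p and miR-200b-3p, 0.90 for miR-200b-3p and miR-429-3p and 0.86 for miR-200a-3p and miR-429-3p. The 2 guides of the chromosome 6 cluster had the lowest r of the 10 pairs, 0.39. Between the clusters r ran from 0.53 to 0.80. These r values are descriptive, are over 6 mice that include both groups, and compare members of the same libraries.

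The close course did not mean a fixed proportion. miR-429-3p had 0.249, 0.361 and 0.347 times the level of miR-200a-3p in WT and 0.227, 0.0367 and 0.0723 times in Tau tg. The ratios of Tau tg 2 and Tau tg 3 stood apart, and Tau tg 1 was just below WT 1. The level of miR-200a-3p over miR-200b-3p was 2.03, 3.44 and 2.47 in WT and 3.30, 3.56 and 4.94 in Tau tg, with overlap. In the chromosome 6 cluster, miR-200c-3p over miR-141-3p ranged from 0.442 to 1.10 in WT and from 0.176 to 0.918 in Tau tg, with no order by group. The chromosome 4 cluster held 52.5% to 76.6% of the family in WT and 49.2% to 60.6% in Tau tg.

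The share of family reads by 6mer seed, the bases at positions 2 to 7 which the study scored for toxicity, also differed in composition. The viability score of a 6mer seed is the deposited percentage of cells that survive a short RNA with that seed, so that a low score marks a toxic seed. AAUACU, the 6mer seed of miR-200b-3p, miR-429-3p and miR-200c-3p, scores 82.0, and AACACU, that of miR-200a-3p and miR-141-3p, scores 64.6. AUCUUA of miR-200a-5p and miR-200b-5p scores 87.5. Reads named as members carried 97.1% of all Ago-bound AAUACU and 98.6% of all AACACU in the table.

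AAUACU made up 45.6%, 36.7% and 37.0% of family reads in WT and 32.0%, 32.7% and 17.1% in Tau tg, with 95% Wilson half-widths of at most 1.69 percentage points. The groups did not overlap (39.7% ± 5.04 against 27.3% ± 8.80, SD, n = 3), and Tau tg 3 lay lowest. The mean viability score over family reads was 72.9, 71.0 and 71.4 in WT and 70.5, 70.7 and 67.7 in Tau tg. It was lower in Tau tg without overlap (71.8 ± 0.97 against 69.6 ± 1.66, SD, n = 3), though WT 2 and Tau tg 2 were close.

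Summed by member, the miR-200b-3p, miR-429-3p and miR-200c-3p group stood at 1469, 2359 and 3805 RPM in WT, and 762, 881 and 414 RPM in Tau tg, without overlap and with a log2 difference of -1.85 ± 0.40. The miR-200a-3p and miR-141-3p group stood at 1636, 3747 and 6026 RPM in WT, and 1535, 1602 and 1861 RPM in Tau tg, where Tau tg 3 exceeded WT 1 (-1.004 ± 0.404).

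**Figure D3:**
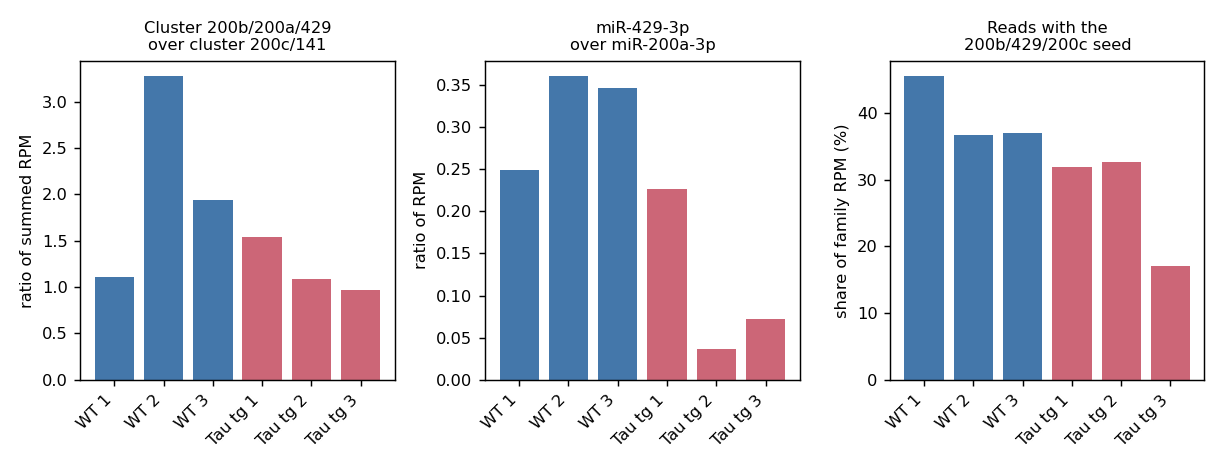
Proportions inside the family in each mouse, as the ratio of summed RPM of the 2 clusters (left), the ratio of RPM of miR-429-3p to miR-200a-3p (middle) and the share of family RPM with the 6mer seed of miR-200b-3p, miR-429-3p and miR-200c-3p (right, %), 1 bar per mouse. The middle bars of Tau tg 2 (0.0367) and Tau tg 3 (0.0723) are the lowest, and all 3 right bars of Tau tg (at most 32.7%) are below those of WT.

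The ends of the reads were compared with the annotated mature ends. The 5′ end, which sets the seed, was held in 96.8% to 97.2% of family reads in WT and 94.1% to 97.9% in Tau tg, with all other miRNAs at 93.5% to 93.9%. The 3′ ends were more varied and differed by member. Untailed reads of miR-429-3p ended at or before the annotated base in every mouse, and at most 0.395% of the reads of miR-200c-3p went beyond it, whereas the most abundant read of miR-200a-3p was 1 base longer than annotated. These 3 reads of miR-200a-3p are shown because their proportions differed between the mice (reads as DNA letters, seed and added base in capitals).
23 nt: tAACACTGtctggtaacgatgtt
22 nt: tAACACTGtctggtaacgatgt
24 nt: tAACACTGtctggtaacgatgttT

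The 23-nt read, which continues into the next base of the hairpin, made up 52.0%, 50.05% and 40.1% of miR-200a-3p in WT and 48.7%, 51.1% and 55.0% in Tau tg. The 22-nt read, the annotated form, made up 31.2%, 35.4% and 32.5% in WT and 28.3%, 13.4% and 11.5% in Tau tg. The 24-nt read, which carries a base that does not match the hairpin at that position, made up 2.47%, 2.71% and 6.86% in WT and 7.74%, 22.5% and 15.9% in Tau tg. The Tau tg brains were below WT in the annotated form and above WT in the tailed form, with Tau tg 1 next to WT in both, and the Wilson half-widths were at most 2.39 percentage points for these 2 reads. In RPM the tailed read was 22.95, 76.6 and 253 in WT and 70.1, 221 and 140 in Tau tg, with overlap. The 22-nt read was at 290, 1002 and 1200 RPM in WT against 257, 131 and 100.7 RPM in the Tau tg brains, without overlap.

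Over all reads of miR-200a-3p, tails of U, of the kind that terminal uridylyltransferases add to 3′ ends, made up 2.53%, 2.87% and 6.97% in WT and 8.23%, 23.99% and 16.3% in Tau tg (4.12% ± 2.47 against 16.2% ± 7.88, SD, n = 3). All other miRNAs together had 4.04% to 4.33% in WT and 4.29% to 4.56% in Tau tg. Of 226 miRNAs with a mean of at least 100 RPM, 7.96% had U-tail shares that did not overlap between the groups, 16 higher and 2 lower in Tau tg, and miR-200a-3p had the third highest difference of these 226. miR-141-3p had U tails on 4.34%, 8.90% and 11.4% of reads in WT and 10.8%, 9.15% and 19.5% in Tau tg, with overlap. The groups overlapped too for miR-200b-3p (3.58% to 7.93% against 4.58% to 10.9%), miR-429-3p (2.42% to 8.37% against 1.93% to 6.98%) and miR-200c-3p (3.82% to 7.03% against 1.44% to 5.80%). A tails on miR-429-3p were at 25.8% in Tau tg 3 and at 2.32% to 5.17% in the other 5 mice. In Tau tg 3, where miR-429-3p had 155 reads, 1 sequence made up 24.5% of them. It has the annotated length of 22 nt, with A in place of the last base, so a tail and a substitution cannot be told apart.

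**Figure D4:**
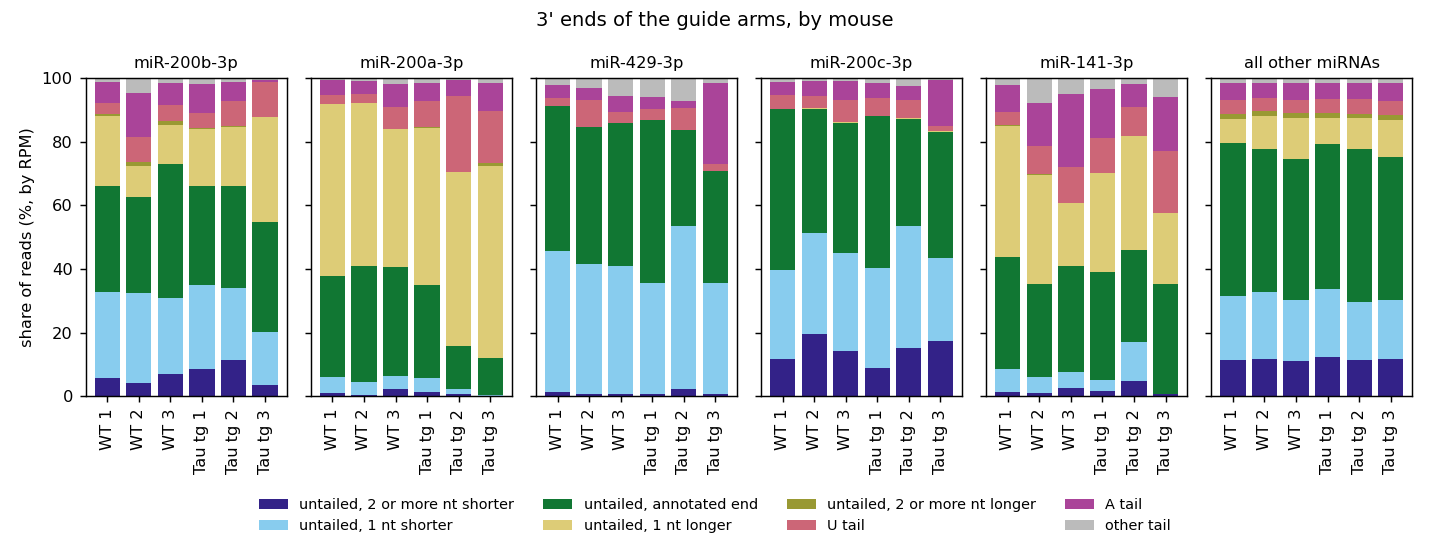
Share of reads (%, by RPM) by 3′ end for the 5 guides and for all other miRNAs together, 1 stacked bar per mouse. Ends are counted against the annotated mature end, and a tail is a base that does not match the hairpin. In miR-200a-3p the U tails make up 2.53% to 6.97% in WT and 8.23% to 23.99% in Tau tg, while all other miRNAs pooled stay between 4.04% and 4.56%. The pool does not show single miRNAs, of which some differed more, such as miR-1198-5p.

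The mature miRNAs whose course over the 6 mice was most like that of the summed family were sought among 470 non-members with a mean of at least 10 RPM. The 3 most alike, by Pearson's r of log2(RPM + 1), were miR-182-5p (r = 0.93), miR-96-5p (r = 0.90) and miR-183-5p (r = 0.90), which are made from 1 cluster and are abundant in sensory epithelia, retina and pineal. miR-374c-5p (r = 0.85) and miR-1981-5p (r = 0.85) followed. miR-374c-5p owed its place to 57.8 RPM in WT 3, with at most 2.51 RPM in any other mouse. With a mean of at least 100 RPM required, the 3 miRNAs of the miR-183 cluster kept their places. With median-of-ratios scaling miR-1843a-5p came second (r = 0.94), ahead of miR-183-5p and miR-96-5p.

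miR-182-5p stood at 192.1, 621 and 715 RPM in WT, and 107, 147 and 49.5 RPM in Tau tg. miR-96-5p stood at 96.03, 413 and 341 RPM in WT against 86.4, 70.3 and 31.5 RPM in Tau tg. miR-183-5p had 38.4, 214.8 and 249 RPM in the WT brains and 44.96, 83.6 and 45.4 RPM in the Tau tg brains. As in the family, WT 1 was the lowest WT brain for each of them, and for miR-183-5p it lay below all Tau tg brains.

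**Figure D5:**
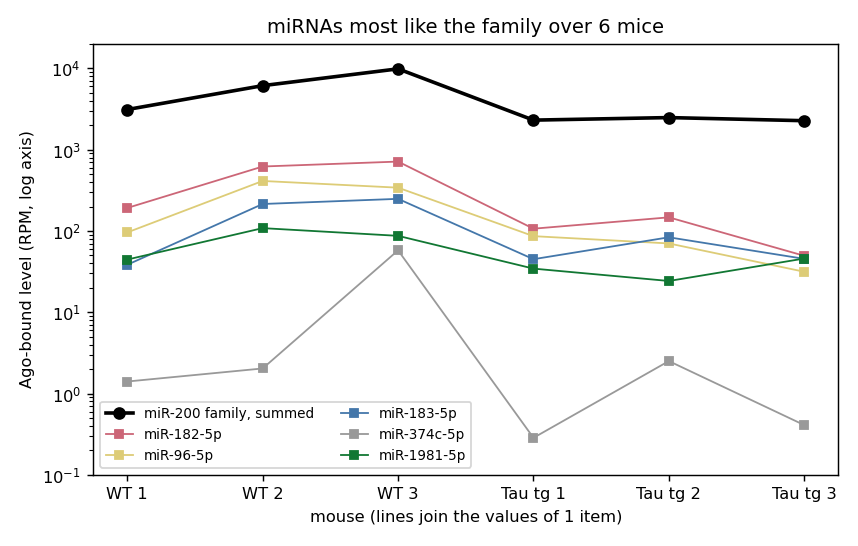
Ago-bound level (RPM, log axis) of the summed miR-200 family and of the 5 other miRNAs most like it over the 6 mice, in the order of the labels. The family and miR-182-5p, miR-96-5p and miR-183-5p are all higher in WT 2 and WT 3 than in WT 1, and miR-374c-5p stands out in WT 3 alone (57.8 RPM).

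miRNAs that mark other cell types were listed with the earlier results of these data known. Of 38 listed, 36 were tested, and 2 were higher and 2 lower in Tau tg at an unadjusted limma p under 0.05 (3.63% of all miRNAs), with 0 after adjustment. Leaving out WT 1 raised their number from 4 to 7, and leaving out Tau tg 1 or Tau tg 3 lowered it to 2. The list for pituitary, pineal or sensory cells held both lower miRNAs, miR-182-5p (log2 difference -2.25 ± 0.56, SE) and miR-96-5p (-2.03 ± 0.62), and its median log2 difference was -0.64 against 0.25 over all miRNAs. All 6 of its miRNAs were present in every mouse, and its summed level was 693, 1895 and 1609 RPM in WT and 592, 666 and 775 RPM in Tau tg. Its miRNAs from outside the miR-183 cluster had another course. miR-375-3p, abundant in pituitary and endocrine cells, was at 41.2 to 59.6 RPM in WT, and 61.3 to 89.2 RPM in Tau tg, while miR-7a-5p was at 227 to 492 RPM in WT against 227 to 482 RPM in the Tau tg brains.

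The list for other epithelia, led by miR-31-5p, held 6 miRNAs, with a median log2 difference of -0.17. It summed to 1722 to 3389 RPM in WT and 2027 to 2342 RPM in Tau tg. Its member miR-205-5p, a miRNA of stratified epithelia, stood at 29.0, 32.5 and 59.6 RPM in WT, and 15.8, 4.18 and 11.9 RPM in Tau tg. It was tested but missed the threshold (unadjusted limma p of 0.052). The log2 differences of the other miRNAs of this list ran from -0.37 to 1.56. The choroid plexus list, led by miR-204-5p, held both higher miRNAs, miR-204-3p (2.21 ± 0.87) and miR-1298-5p (1.44 ± 0.60), with a median of 0.94. With 7 of its 8 miRNAs present, 3 of them at 0 in at least 1 mouse, it summed to 1976, 2109 and 5772 RPM in WT and 9709, 2418 and 4640 RPM in Tau tg. The ciliated ependyma list, led by miR-34c-5p, had 5 of 6 present, a median of 0.71, and summed to 1147 to 1488 RPM in WT and 1004 to 3955 RPM in Tau tg. For the oligodendrocyte list, led by miR-219a-5p, the sums were 8442 to 13591 RPM in WT and 10627 to 13997 RPM in Tau tg. The muscle and liver list, led by miR-133a-3p, summed to 123 to 234 RPM in WT and 201 to 229 RPM in Tau tg. The part of any of these cell types in the levels of the family was not tested.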

How the data were processed

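Ago-bound short RNA was sequenced from 3 WT and 3 Tau tg brains, grouped and numbered by their titles. The authors made the deposited table with their SPOROS pipeline, after trimming that the labels credit to Trim Galore (version not given in the sources used here). Rare reads and artificial sequences were removed. The deposited values are RPM per unique read, scaled by the authors to the library size. The deposited viability score is that of each 6mer seed. miRNA names are the authors' assignments, in an annotation on mm9 whose coordinates were not used.

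RPM values were whole multiples of 1 read within 0.002 RPM for 100% of values, and reads were recovered from them. RPM was summed per mature miRNA. Differences were fitted with limma 3.58.1 with a trend on log2(RPM + 1) over 689 miRNAs with a mean of at least 1 RPM, with Benjamini-Hochberg adjustment. Count models on recovered reads called 29 miRNAs (edgeR 4.0.16) and 37 (DESeq2 1.42.0) at an unadjusted p under 0.05, and 0 and 5 after adjustment. Fits and tail calls were tested on simulated data. A tail was up to 3 bases after at least 16 matched ones. Hairpin and mature sequences are from RefSeq (8 of 8 members matched), and overlaps with genes are from GENCODE M21. A floor of 3 reads was 0.427 RPM in Tau tg 1 and 2.75 RPM in WT 3. The software was Python 3.11.15 (pandas 2.3.3, NumPy 2.4.6, Matplotlib 3.10.9, SciPy 1.17.1) with R 4.3.3.

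The members, the marker lists, the tests and the alternatives were chosen with earlier results of these data known. The rule for named items took the 8 members, up to 3 reads of a member, the other arms of the same hairpins, the 5 non-members with the highest r with the family, and listed markers with an unadjusted p under 0.05 or the highest level of their list. The choice of miR-200a-3p for its reads, the A tails of miR-429-3p, miR-375-3p, miR-205-5p, miR-1198-5p and miR-1843a-5p were named after their values were seen. Alternatives were pseudocounts of 0.1 and 5, other filters, 3 scalings, read lengths of 19 to 25 nt, exact or main-seed reads only, limma without trend, the count models, a replicate block, and leaving out each mouse.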

Additional observations from a re-analysis of the deposited data

How the results depend on the processing

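The log2 differences of the family, its 2 clusters, its 2 seed groups and 7 members were below 0 under all settings run. Each moved by less than the spread between replicates. Leaving out 1 mouse could not move a difference by more than that spread, so the comparison says nothing for those settings. Without WT 3, miR-141-3p went from -0.66 to -0.15 and the chromosome 6 cluster from -0.84 to -0.44. Leaving out 1 mouse at a time, the number of miRNAs with an unadjusted limma p under 0.05 ranged from 18 (without Tau tg 3) to 50 (without WT 1), and the number after adjustment from 0 to 1 (without Tau tg 1). DESeq2 gave 5 after adjustment. The number of listed marker miRNAs ranged from 2 to 7. The share of family reads with the annotated 5′ end differed by -0.94 percentage points (Tau tg minus WT), and by 0.0495 without Tau tg 2 and -1.85 without Tau tg 1. The U-tail difference of miR-200a-3p was 12.0 percentage points and stayed between 8.12 (without Tau tg 2) and 16.001 (without Tau tg 1). With a mean of at least 100 RPM required, 3 of the 5 most alike miRNAs were the same, and with median-of-ratios scaling 4 were. The causes were not tested.

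With the replicate number as a block, 22 miRNAs had an unadjusted p under 0.05, against 25 without it. No pairing of the mice by number was seen. Deviations from the group means correlated with r of -0.0020, -0.069 and 0.041 for numbers 1, 2 and 3, and not every mouse correlated best with its own number. Such correlations over all tested miRNAs cannot exclude a pairing that touches only a few of them.

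Few reads limit miR-200a-5p and miR-200b-5p, with 0 to 2 reads in Tau tg 2 and Tau tg 3. These counts did not follow library depth. Tau tg 3 had 2358928 reads in all, while WT 3, with 998248, gave 19 and 40 reads of these arms. For miR-141-5p the naming of reads counts as well, since 35 reads of its arm have no miRNA name and 10 have one.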

Other observations

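The single read named miR-141-5p in the table began 2 bases before the annotated 5′ end, which gives it the 6mer seed CCAUCU with a viability score of 24.5. Further reads from the same arm carried G12A, counted from 1 at the annotated 5′ end of miR-141-5p, and had no miRNA name in the table. These made up 35 reads over the 6 libraries (13, 6 and 1 in WT, 10, 4 and 1 in Tau tg), against 10 reads with the reference base. They are not included in the levels of the family. Reads annotated to any of the 5 hairpins that carried neither a member's name nor that of its other arm made up between 1.10% and 2.16% of the sum of these reads and the family in each mouse.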
